A study of Oryza sativa Japonica Group with 8 samples.

Results

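The genes described here are nuclear rice genes for subunits of photosystem I and photosystem II, for the carriers between and after them (the Rieske protein, plastocyanin, ferredoxin and ferredoxin-NADP reductase), for the plastid ATP synthase and for enzymes of the Calvin cycle. They were taken as a list of 34 locus identifiers out of the 55801 genes of the deposited count table, with antenna and Rubisco genes left out. Their RNA was compared between 2 libraries from leaves of seedlings grown on diluted MS medium with carbon dots at 0.56 mg/ml (CD) and 2 libraries from leaves of seedlings grown on the same medium without them (CK, the control). All seedlings were Nipponbare, a Japonica cultivar, and were sown as surface-sterilised seed in a growth chamber. The labels give an age of 2 weeks and a growth period of 3 weeks, which leaves the age at harvest unclear, and nothing in them ties a replicate to plants of its own. The dots are very small particles made mainly of carbon.

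In leaves, both photosystems sit in the thylakoid membrane of the chloroplast and move electrons from water through the cytochrome b6f complex to ferredoxin. Ferredoxin-NADP reductase passes these electrons on to make NADPH, and the ATP synthase uses the proton gradient built on the way. The Calvin cycle in the stroma spends both products to fix carbon dioxide. The core proteins that bind the reaction centre pigments are mostly encoded in the plastid genome, while many smaller and outer subunits are encoded in the nucleus and imported.

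The count table pairs no identifier with a name. A RefSeq table of another assembly (ASM3414082v1, used for names only) had a record at the matching place for 30 of the 34 genes, and 9 of these records carry a name. These are PSAH, OEE3, petC, PETE, ADI1, LFNR1, FBPase, ALDP and RPE. The other 25 genes are given by identifier with the role under which they stand in the list, and the subunit each encodes is not named in the sources used here. By role, 9 genes were listed for photosystem I, 6 for photosystem II, 5 for electron transport, 3 for the ATP synthase and 11 for the Calvin cycle. They lie on 11 of the 12 chromosomes, 7 of them on chromosome 7.

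Nearly all of these genes lay lower in CD leaves, by close to the same amount. Of the 31 genes with enough counts to test, 29 had a log2 fold change below 0, where 49% of all 26271 genes tested did. The median was -0.998, a fold of 0.501, against 0.01 for all genes tested. Of the 31, 15 had a log2 fold change of -1 or lower, as had 3.49% of all genes tested. In the same 29 genes each CD replicate had less than either CK replicate, which held for 20.7% of all genes tested. Their log2 fold changes ran from -1.35 to -0.68, or folds of 0.391 to 0.624. Both genes above 0 are named below. In bulk leaf RNA, fewer green cells and less of these RNAs per cell cannot be told apart.

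None of the 31 genes was called by edgeR. Its quasi-likelihood test called 0% of all genes tested at an adjusted p of 0.05, and the adjusted p of the 31 genes ran from 0.460 to 0.759. At an unadjusted p under 0.05, 27 of the 31 were lower and 0 were higher, where 5.37% of all genes were lower and 3.33% were higher. Leaving out either CK replicate lowered that count, and it also lowered the share of all genes that were lower at this p. The median log2 fold change of the 31 was -1.01 without CK replicate 1 and -0.98 without CK replicate 2. DESeq2 called 17 of the 31 lower and 0 higher at an adjusted p of 0.05, where it called 1.18% of all genes lower and 0.773% higher. limma-voom called 0 of all genes.

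**Figure D1:**
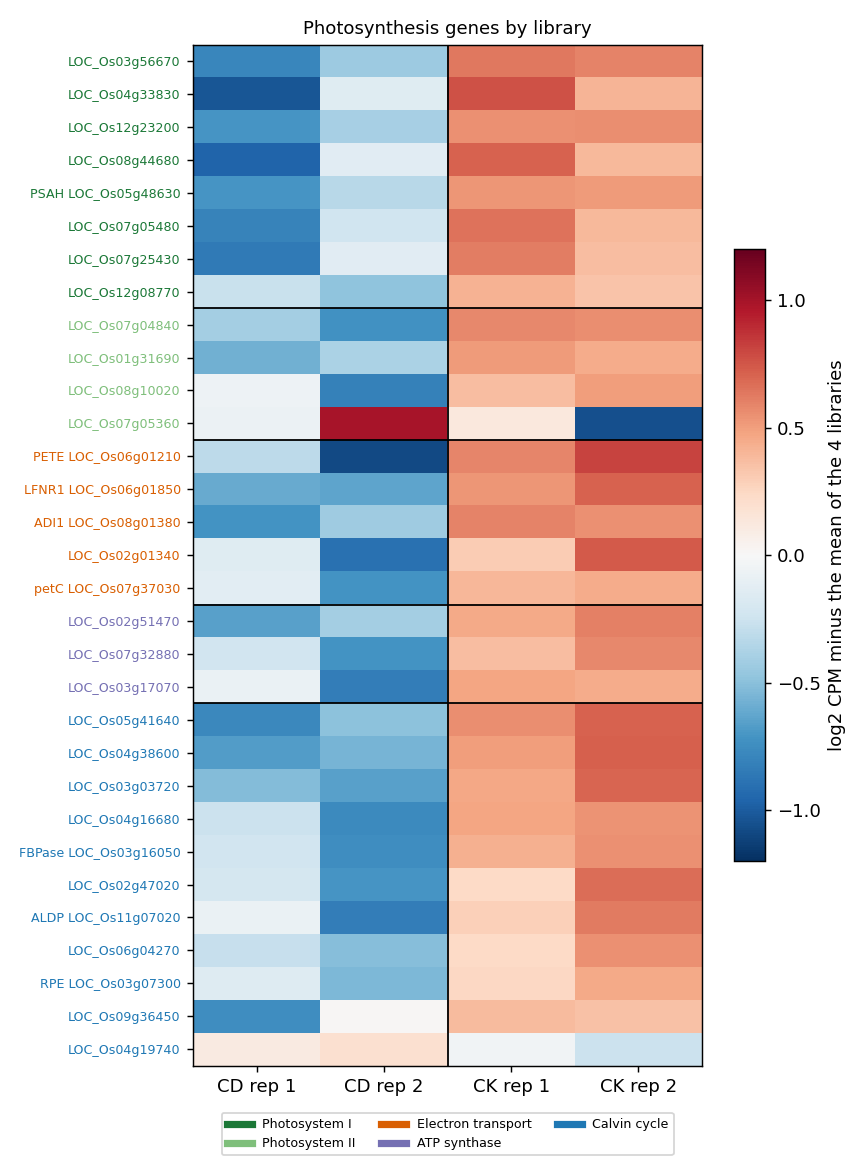
Heat map of the 31 tested genes, grouped by role, in the 4 libraries (CD left, CK right). Colour is log2 CPM (counts scaled by the TMM library size, so that libraries of different depth compare) minus the mean of the 4 libraries. Nearly every row is blue in both CD libraries and red in both CK libraries, with LOC_Os07g05360 and LOC_Os04g19740 apart.

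The CD libraries held 74853055 and 49281927 counts and the CK libraries 80317398 and 60763633, replicate 1 before replicate 2. The libraries of a group were not close copies. On the first principal component, with 45.4% of the variance, the CD libraries had scores of -78.7 and 0.503 and the CK libraries had 53.8 and 24.4. The second component set CD replicate 2, at -71.9, apart from the rest. Results that rest on either library are given without it below. Markers of other cells were checked beside the list. The wall cellulose synthases CESA4 and CESA7 summed to 244 and 513 TPM in CD leaves and 395 and 263 TPM in CK leaves, and the replication clamp PCNA lay between 28.9 and 35.7 TPM in all 4 libraries. Of 3 root transporters LSI2 was listed at 0, and the summed level of LSI1 and NRAMP5 was 30.01 and 34.02 TPM in CD leaves against 35.5 and 42.7 TPM in CK leaves. The meristem gene OSH1 had 0 TPM in both CD libraries and 0.968 and 0.462 TPM in the CK libraries. Its counts were 0 in both CD libraries and 117 and 42 in CK replicates 1 and 2. The log2 fold change of -9.21, the lowest of all genes tested, rests on these 0 counts (adjusted p = 0.460 by edgeR and 9.85e-05 by DESeq2). The part of these tissues in the results was not tested.

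All 8 tested genes of the photosystem I list lay lower in CD leaves, with log2 fold changes from -1.21 to -0.75 and a median of -1.04. DESeq2 called 5 of them lower, where it called 1.18% of all genes tested lower. LOC_Os03g56670 (chromosome 3, 32272930 to 32274174, minus strand) had the lowest p of the group. It stood at 97.1 and 124 CPM in CD replicates 1 and 2, and at 259 and 252 CPM in CK replicates 1 and 2. Both CD libraries were low and the groups were far from overlapping. The log2 fold change was -1.21 ± 0.19 (SE; unadjusted p = 0.00124, adjusted p = 0.460 by edgeR and 1.57e-04 by DESeq2). On 28.1% of its exon bases this gene overlaps another gene on the opposite strand.

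PSAH (LOC_Os05g48630, chromosome 5, 27878556 to 27879619), which encodes subunit H, a small protein on the side of photosystem I where antenna complexes dock, gave 188 and 244 CPM in CD leaves and 444 and 437 CPM in CK leaves. Its 2 control values nearly coincide, and both CD values are lower (log2 fold change -1.03 ± 0.20). LOC_Os07g05480 was the photosystem I gene with the highest mean TPM over the 4 libraries. It had 591 and 854 TPM in CD leaves and 1474 and 1234 TPM in CK leaves, where TPM is counts per gene length scaled to the same total in each library. In this gene the lower CD value came from CD replicate 1 and the higher CK value from CK replicate 1 (log2 fold change -1.02 ± 0.26).

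The photosystem I gene with the largest p was LOC_Os08g44680, at 239 and 425 CPM in CD leaves and 758 and 610 CPM in CK leaves. Its log2 fold change was -1.04 ± 0.33 (unadjusted p = 0.0247, adjusted p = 0.510 by edgeR and 0.0950 by DESeq2). Leaving out CD replicate 1 gave -0.69. LOC_Os04g33830 and LOC_Os07g25430 behaved alike, at -1.12 and -0.95 with all libraries and -0.74 and -0.63 without CD replicate 1. LOC_Os12g23200 had 235 and 291 CPM in CD leaves and 564 and 566 CPM in CK leaves (-1.10 ± 0.20). LOC_Os12g08770 had 311 and 268 CPM in CD leaves and 499 and 475 CPM in CK leaves (-0.75 ± 0.18). It was the only photosystem I gene with CD replicate 2 as the lowest library.

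In photosystem II, 4 of the 6 listed genes could be tested and 3 lay lower in CD leaves. LOC_Os07g04840 (chromosome 7, 2137119 to 2138229) had the lowest p, with 335 and 269 CPM in CD leaves against 663 and 652 CPM in CK leaves. CD values were all below CK values, and the log2 fold change was -1.12 ± 0.20 (unadjusted p = 0.00247, adjusted p = 0.460 by edgeR and 5.50e-04 by DESeq2). LOC_Os01g31690 (chromosome 1, 17349311 to 17350816) stood at 972 and 1114 CPM in CD leaves and 2062 and 1966 CPM in CK leaves. Here the replicates of each group lay close together and the groups far apart (-0.95 ± 0.22, adjusted p = 0.460 by edgeR and 0.00164 by DESeq2). LOC_Os08g10020, the photosystem II gene with the highest mean TPM over the 4 libraries, had 1117 and 661 CPM in CD leaves and 1501 and 1647 CPM in CK leaves. Its log2 fold change of -0.82 ± 0.32 became -1.25 when CD replicate 1 was left out and -0.50 when CD replicate 2 was.

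LOC_Os07g05360 was the exception in photosystem II. It had 182 and 378 CPM in CD leaves and 208 and 91.9 CPM in CK leaves. The highest value was CD replicate 2 and the lowest CK replicate 2, and CD replicate 1 lay below CK replicate 1, so the groups overlapped. The log2 fold change was 0.90 ± 0.52 (unadjusted p = 0.141, adjusted p = 0.714 by edgeR), and it was 0.27 when CD replicate 2 was left out, 0.43 when CK replicate 2 was and 1.61 when CK replicate 1 was. Its CPM differed between replicates by -1.06 in CD (replicate 1 minus replicate 2) and 1.18 in CK on the log2 scale, the widest of the 31 genes in both groups. It lies 89816 bases from LOC_Os07g05480, the photosystem I gene that was lower in both CD libraries.

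Another 3 listed genes were at 0 counts in every library. These were OEE3 (LOC_Os07g36080, chromosome 7, 21574435 to 21576033), an extrinsic protein of the water-splitting side of photosystem II, LOC_Os08g02530 of the photosystem II list and LOC_Os09g30340 of the photosystem I list. In OEE3 and LOC_Os09g30340 all exon bases, 1376 and 1596 of them, lie within a gene on the opposite strand. Across the whole table, 82 genes share every exon base with another gene and all 82 were at 0, against 38.4% of the 54156 genes that share none. LOC_Os08g02530 shares no exon base with another gene. A value of 0 for these genes is what the table lists, and it was not read as a lack of RNA.

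All 5 tested genes for electron carriers lay lower in CD leaves, with a median log2 fold change of -1.14 and a range of -1.35 to -0.81. LFNR1 (LOC_Os06g01850, chromosome 6, 479178 to 481669), the leaf ferredoxin-NADP reductase that makes NADPH, had 94.5 and 92.5 CPM in CD leaves and 208 and 236 CPM in CK leaves. The CD replicates were nearly equal and both under the CK replicates. The log2 fold change of -1.24 ± 0.16 had the lowest p of all 31 genes (unadjusted p = 5.15e-04, adjusted p = 0.460 by edgeR and 4.72e-06 by DESeq2). It stayed between -1.33 and -1.15 with any 1 library left out. LFNR1 shares 21.1% of its exon bases with a gene on the other strand. The gene of this role without a name here, LOC_Os02g01340, was less even. It had 308 and 183 CPM in CD leaves and 422 and 567 CPM in CK leaves (-1.01 ± 0.32).

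PETE (LOC_Os06g01210, chromosome 6, 149384 to 150246) encodes plastocyanin, the copper protein that carries electrons from the cytochrome b6f complex to photosystem I. It had 532 and 312 CPM in CD leaves and 992 and 1163 CPM in CK leaves. The fold was 0.391, or -1.35 ± 0.32 on the log2 scale, and CD replicate 2 was the lowest library. With that library left out PETE was at -1.02, and with CD replicate 1 left out at -1.79. ADI1 (LOC_Os08g01380, chromosome 8, 241679 to 242634), a ferredoxin, the iron-sulfur protein that accepts electrons from photosystem I, had 505 and 617 CPM in CD leaves and 1257 and 1216 CPM in CK leaves. Both groups were tight and did not overlap (-1.14 ± 0.21, adjusted p = 0.460 by edgeR and 1.88e-04 by DESeq2). petC (LOC_Os07g37030, chromosome 7, 22184376 to 22187030), the Rieske iron-sulfur protein of the cytochrome b6f complex, had 463 and 307 CPM in CD leaves and 667 and 687 CPM in CK leaves (-0.81 ± 0.26).

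The 3 genes of the plastid ATP synthase list were also lower. LOC_Os02g51470 (chromosome 2, 31526904 to 31528541) had 120 and 143 CPM in CD leaves and 260 and 287 CPM in CK leaves. Its log2 fold change was -1.06 ± 0.18 (adjusted p = 0.460 by edgeR and 8.30e-04 by DESeq2). LOC_Os07g32880, the most abundant of the 3 by TPM, had 374 and 266 CPM in CD leaves and 568 and 655 CPM in CK leaves (-0.93 ± 0.24). LOC_Os03g17070 had 244 and 145 CPM in CD leaves and 358 and 351 CPM in CK leaves. Its groups did not overlap, but CD replicate 1 lay closer to the controls, and the log2 fold change of -0.87 ± 0.28 was -0.55 without CD replicate 2.

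**Figure D2:**
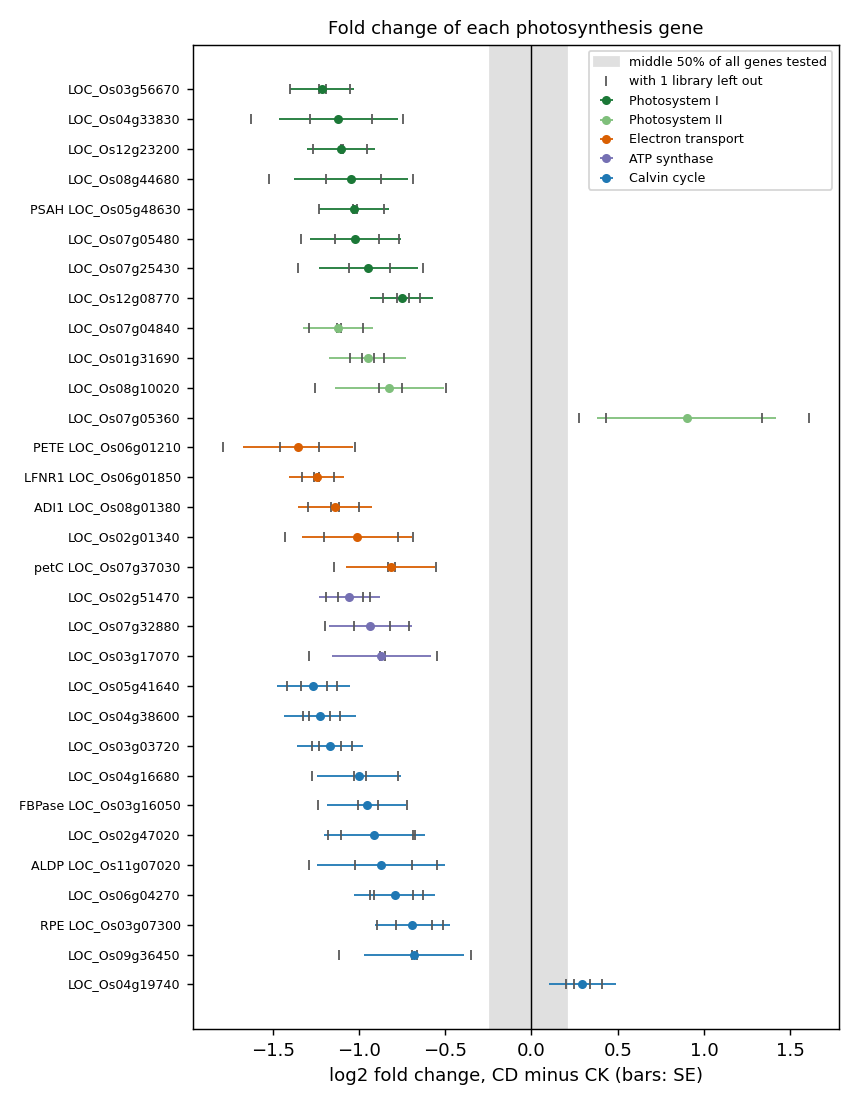
Log2 fold change (CD minus CK, edgeR) of each of the 31 tested genes with its standard error, coloured by role, with the value when 1 library is left out as short grey strokes and the middle 50% of all genes tested as a grey band. Apart from LOC_Os07g05360 and LOC_Os04g19740, every point lies between -1.35 and -0.68, left of the band.

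Of the 11 Calvin cycle genes, 10 lay lower in CD leaves with no overlap between groups, as did 20.7% of all genes tested. The median log2 fold change of the 11 was -0.91. LOC_Os03g03720 (chromosome 3, 1662172 to 1665576) had the lowest p. It gave 263 and 240 CPM in CD leaves and 520 and 609 CPM in CK leaves, so both CD values were low and close to each other (-1.17 ± 0.19, unadjusted p = 0.00157, adjusted p = 0.460 by edgeR and 9.50e-05 by DESeq2). LOC_Os04g38600 followed the same course, with 527 and 571 CPM in CD leaves and 1190 and 1380 CPM in CK leaves (-1.23 ± 0.21). LOC_Os05g41640 had 352 and 430 CPM in CD leaves and 891 and 988 CPM in CK leaves (-1.26 ± 0.21). These 3 genes were called lower by DESeq2, and so were LOC_Os04g16680 (-0.998 ± 0.24) and FBPase.

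FBPase (LOC_Os03g16050, chromosome 3, 8841268 to 8843069), fructose-1,6-bisphosphatase, removes a phosphate on the way back to the carbon dioxide acceptor. It had 174 and 121 CPM in CD leaves and 274 and 298 CPM in CK leaves. Both CD libraries were low (-0.95 ± 0.23, adjusted p = 0.460 by edgeR and 0.0383 by DESeq2). ALDP (LOC_Os11g07020, chromosome 11, 3488553 to 3491659), the plastid aldolase that joins triose phosphates, had by far the most RNA per length of the list and was among the 20 genes with most counts in the table. It stood at 4682 and 2797 CPM in CD leaves and 6055 and 7628 CPM in CK leaves. Its groups did not overlap, yet the replicates of both were wide apart. The log2 fold change of -0.87 ± 0.37 (unadjusted p = 0.0644, adjusted p = 0.590 by edgeR and 0.203 by DESeq2) was -0.55 without CD replicate 2. RPE (LOC_Os03g07300, chromosome 3, 3713491 to 3717958), ribulose-phosphate epimerase, had 346 and 265 CPM in CD leaves and 457 and 528 CPM in CK leaves (-0.69 ± 0.22). RPE shares 24.1% of its exon bases with a gene on the other strand.

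LOC_Os02g47020, second to ALDP among Calvin cycle genes by TPM in every library, had 1047 and 741 CPM in CD leaves and 1433 and 1930 CPM in CK leaves (-0.91 ± 0.29). LOC_Os06g04270 had 958 and 816 CPM in CD leaves and 1374 and 1702 CPM in CK leaves (-0.79 ± 0.24). In both, all CD values were under all CK values. LOC_Os09g36450 had 178 and 302 CPM in CD leaves and 389 and 381 CPM in CK leaves. Here CD replicate 1 was low and CD replicate 2 closer to the controls, and the log2 fold change of -0.68 ± 0.29 became -0.35 when CD replicate 1 was left out and -1.11 when CD replicate 2 was.

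LOC_Os04g19740 (chromosome 4, 11026653 to 11032683) ran the other way. It had 9.65 and 10.3 CPM in CD leaves and 8.70 and 7.50 CPM in CK leaves. Both CD libraries were slightly above both CK libraries, as in 17.8% of all genes tested, with a log2 fold change of 0.30 ± 0.19 (unadjusted p = 0.184, adjusted p = 0.759 by edgeR). It was also the weakest gene of the list by a wide margin, at 7.21 and 7.48 TPM in CD leaves and 5.91 and 5.10 TPM in CK leaves. The other 30 tested genes had means over the 4 libraries of 190.4 TPM or more.

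Levels per length differed far more between genes than between groups. ALDP averaged 3497 ± 1302 TPM in CD leaves and 5869 ± 952 TPM in CK leaves (SD, n = 2 each). LOC_Os08g10020 followed with 1757 ± 666 TPM in CD leaves and 2854 ± 186 TPM in CK leaves, and LOC_Os01g31690 with 1423 ± 113 TPM in CD leaves and 2530 ± 85.8 TPM in CK leaves. Next came ADI1, at 1111 ± 139 TPM in CD leaves and 2257 ± 53.1 TPM in CK leaves, and PETE, at 930 ± 358 TPM in CD leaves and 2179 ± 244 TPM in CK leaves. In CD leaves the ranges of mean ± SD of neighbours in this order overlap, except that LOC_Os01g31690 lies above ADI1. LFNR1, with a partly overlapped exon length, was low for a carrier at 120 ± 3.86 TPM in CD leaves and 261 ± 23.3 TPM in CK leaves.

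Summed over the list, these genes held 2.09% and 1.80% of all TPM in the 2 CD libraries and 3.39% and 3.60% in the 2 CK libraries. Photosystem I genes summed to 3357 and 4581 TPM in CD leaves and 7866 and 6890 TPM in CK leaves. Calvin cycle genes summed to 8571 and 6171 TPM in CD leaves and 11629 and 14099 TPM in CK leaves. Every role had both CD sums below both CK sums. The library with the lowest sum was CD replicate 1 for photosystem I and CD replicate 2 for the other roles.

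**Figure D3:**
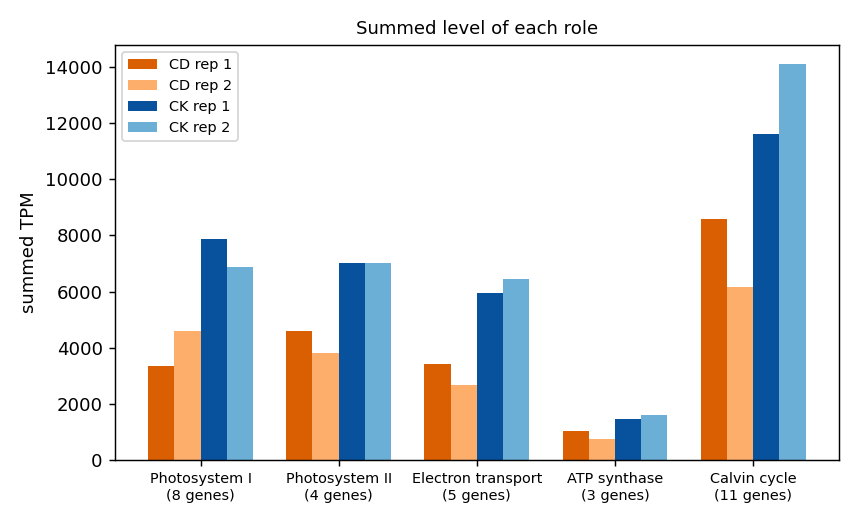
Summed TPM of the tested genes of each role, 1 bar per library, CD left of CK. Both CD bars are below both CK bars in each role, and photosystem I is the role where CD replicate 1 (3357 TPM) is below CD replicate 2 (4581 TPM).

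The CD replicates were not low in the same genes to the same degree. In 7 of 8 photosystem I genes CD replicate 1 lay below CD replicate 2, with a median difference of -0.47 in log2 CPM. In 4 of 5 carriers, 2 of 3 ATP synthase genes and 7 of 11 Calvin cycle genes CD replicate 1 lay above CD replicate 2, with medians of 0.59, 0.49 and 0.23. The same difference over all genes tested had a median of -0.01 and a middle 50% from -0.31 to 0.36. By replicate number, the CK replicates differed in the opposite direction. CK replicate 1 was above CK replicate 2 in 7 of 8 photosystem I genes and below it in 9 of 11 Calvin cycle genes. The medians were 0.15 and -0.21. Both lie within the middle 50% of all genes tested for this difference, which ran from -0.23 to 0.24.

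The ratio of summed photosystem I TPM to summed Calvin cycle TPM was 0.392 and 0.742 in the CD libraries, against 0.676 and 0.489 in the CK libraries. The CD values lie on both sides of the CK values, so this balance did not separate the groups. In the photosystem I genes leaving out CD replicate 1 gave a median log2 fold change of -0.81, and leaving out CD replicate 2 gave -1.34. In the Calvin cycle genes the same 2 steps gave -1.17 and -0.72. In each of these 4 cases the direction was the same. The order CD replicate 1, CD replicate 2, CK replicate 2, CK replicate 1 from low to high was found in 6 of 8 photosystem I genes and 1 of 11 Calvin cycle genes, and in 7.55% of all genes tested.

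**Figure D4:**
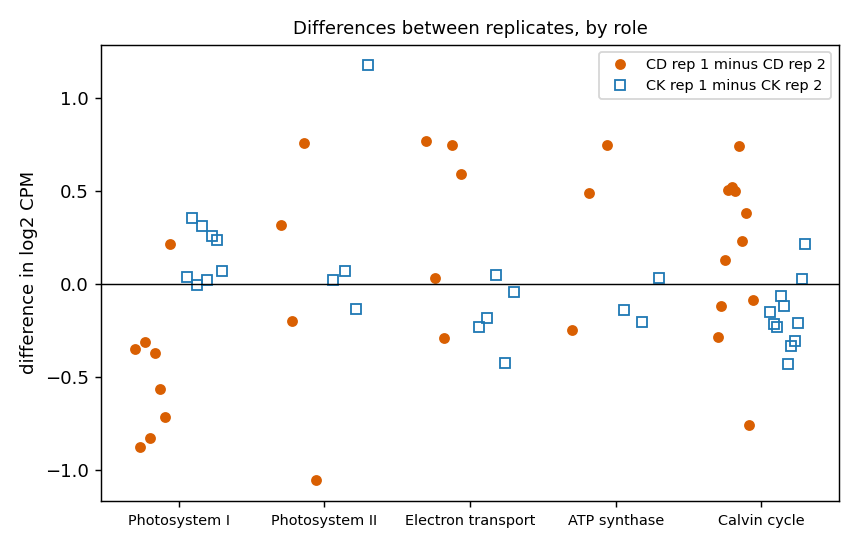
Difference in log2 CPM between the replicates of a group for each tested gene, by role (filled circles, CD replicate 1 minus CD replicate 2; open squares, CK replicate 1 minus CK replicate 2). Photosystem I circles lie mostly below 0 (median -0.47) and carrier circles mostly above 0 (median 0.59).

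A list of 13 genes entered as non-photosynthetic forms of the same enzymes gives the contrast. It holds cytosolic glycolytic enzymes, cytosolic fructose-1,6-bisphosphatase and ferredoxin-NADP reductases of the kind abundant in roots. Of the 12 that could be tested, 5 were below 0 and 7 above, with a median log2 fold change of 0.07. That median was -0.0013 when CD replicate 2 was left out, 0.18 with total count scaling and 0.19 on either TPM scale. In these fits the median of all genes was -0.02, 0.11, and 0.10 or 0.12, against 0.01 with all libraries and TMM. At an unadjusted p under 0.05 by edgeR, 1 was lower and 0 were higher, and DESeq2 called 0. Over all genes tested edgeR had 5.37% lower and 3.33% higher at that p. DESeq2 called 1.18% of all genes lower and 0.773% higher. By CPM, both CD libraries lay above both CK libraries in 5 of the 12 and below them in 3, and 4 overlapped. Over all genes tested 17.8% lay above and 20.7% below. GAPC1, a cytosolic glyceraldehyde-3-phosphate dehydrogenase, had 702 and 585 TPM in CD leaves and 384 and 453 TPM in CK leaves. Its groups did not overlap, with CD higher (0.50 ± 0.21, unadjusted p = 0.0640, adjusted p = 0.590 by edgeR). The cytosolic aldolase AldC-1 had 560 and 566 TPM in CD leaves and 502 and 479 TPM in CK leaves (0.08 ± 0.17). The triose phosphate isomerase TPI had 461 and 448 TPM in CD leaves and 453 and 490 TPM in CK leaves (-0.17 ± 0.17). These TPM values of TPI overlap, whereas by CPM it had 373 and 371 in CD leaves and 403 and 436 in CK leaves. The split given above can thus differ by TPM.

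For 3 enzymes both forms carry a name in the RefSeq table, so that their ratio could be followed in each library. The log2 ratio of ALDP to AldC-1 was 2.98 and 2.19 in CD leaves and 3.37 and 3.77 in CK leaves. The log2 ratio of ALDP to FBA1, another cytosolic aldolase, was 4.55 and 3.79 in CD leaves and 4.91 and 4.92 in CK leaves. Both ratios were lower in both CD libraries, by 0.99 and 0.74 on average, and in both the CD replicates lay wide apart. The log2 ratio of LFNR1 to the reductase gene LOC_Os07g05400 was 0.72 and 0.47 in CD leaves and 1.73 and 2.06 in CK leaves, and to LOC_Os03g57120 it was 2.09 and 1.70 in CD leaves and 2.74 and 3.02 in CK leaves. Again both CD values lay below both CK values. The exact two-sided permutation test over 2 and 2 libraries gave p = 0.333 for each of these 4 ratios, the smallest it can give.

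For fructose-1,6-bisphosphatase the ratio overlapped between the groups. The log2 ratio of the plastid FBPase to CFBP1, the cytosolic form that serves sucrose synthesis, was 0.54 and 0.43 in CD leaves and 0.75 and 0.41 in CK leaves. Its means were 0.49 ± 0.08 in CD leaves and 0.58 ± 0.24 in CK leaves (SD, n = 2 each; exact permutation p = 1). CFBP1 itself was lower in CD leaves, at 153 and 112 TPM against 190 and 260 TPM in CK leaves (-0.88 ± 0.25, unadjusted p = 0.0157, adjusted p = 0.474 by edgeR). It was the only gene of the contrast list with an unadjusted p under 0.05. On 37.6% of its exon bases CFBP1 overlaps a gene on the other strand.

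**Figure D5:**
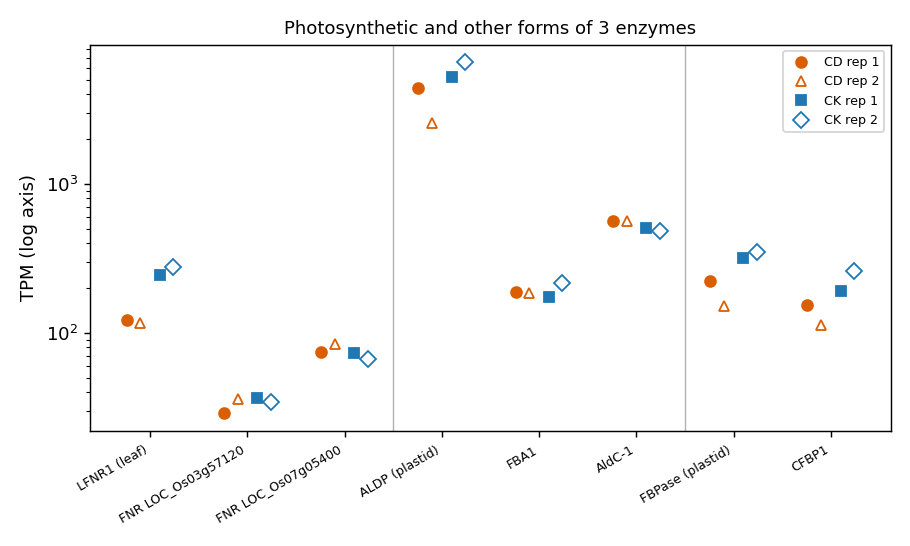
TPM on a log axis of the photosynthetic form and other forms of ferredoxin-NADP reductase, aldolase and fructose-1,6-bisphosphatase in each library (orange CD, blue CK). LFNR1, ALDP and plastid FBPase are lower in both CD libraries, and of the other forms CFBP1 also is (153 and 112 TPM in CD, 190 and 260 TPM in CK).

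Genes next to these in the pathway were counted in the same fit. Of 20 antenna and Rubisco genes entered, 18 were tested and 17 were below 0, with a median log2 fold change of -1.30. Each CD replicate had less than either CK replicate in 12 of the 18, against 29 of the 31 genes of the list above. Over all genes tested that held for 20.7%. DESeq2 called 8 of the 18 lower and edgeR had 9 lower and 1 higher at an unadjusted p under 0.05. Over all genes tested DESeq2 called 1.18% lower, and edgeR had 5.37% lower and 3.33% higher at that p. Leaving out CD replicate 1 gave a median of -0.98 for these 18 and leaving out CD replicate 2 gave -1.94, while the 31 genes had -1.05 and -1.02. The difference between these 2 lists was not tested. Of 7 further genes entered as photosynthesis genes, 6 were tested and all 6 were lower in each CD replicate than in either CK replicate, with a median of -1.26. Their log2 fold changes ran from -1.75 to -0.47. The lowest was that of LOC_Os01g64960, with 156 and 238 TPM in CD leaves and 635 and 585 TPM in CK leaves (-1.75 ± 0.27).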

How the data were processed

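RNA-seq of 4 leaf libraries (2 CD, 2 CK) was used, and the 4 bisulfite samples of the series were not analysed here. The authors deposited raw read counts per gene, laid out as featureCounts writes them, per the file headers, and TPM values. The deposited TPM equalled counts divided by gene length and scaled to the same total in each library, within a relative 1.44e-07. For these reads HISAT2 2.0.5, featureCounts 1.6.4, fastp 0.21.0, SAMtools 1.9 and FastQC 0.11.5 are listed in the submitters' processing notes, without saying what each did. Which genome build and strand setting were used is not given in the sources used here, and coordinates are those of the count table. Where genes are near-identical copies, the counting may have divided or dropped their reads.

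The 2 groups were compared with edgeR 4.0.16 in R 4.3.3 (TMM, filterByExpr, 26271 of 55801 genes kept, quasi-likelihood F test, Benjamini-Hochberg over all genes at 0.05). A positive log2 fold change means more in CD, and its standard error is its size divided by the square root of F. CPM uses TMM library sizes. DESeq2 1.42.0, limma 3.58.1, other scalings and filters, left-out libraries and a replicate block were alternatives. The code was tested on simulated data. With 2 libraries a group, a p-value reflects nothing but the variation among these 4 libraries, possibly technical. A chi-square per degree of freedom of 69.3 to 190 for the 6 pairs of libraries showed no pair equal within sampling noise. The 2 CD libraries gave 116 against each other and the 2 CK libraries 69.3. CD replicate 2 gave 98.5 and 105 against CK replicates 1 and 2, and CD replicate 1 gave 190 and 119. By this measure CD replicate 2 lay closer to both controls than to CD replicate 1.

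Identifiers were placed on the RefSeq table by the shared offset of up to 40 neighbouring genes on each side and an overlap of at least 50%. The genes and lists were chosen with earlier results of these data known. By a rule, genes were chosen in each role for lowest p, largest p, highest TPM, or CD not below CK. They were described by library values and fold change, and only some of them by p. Genes not chosen by this rule, the ratios of enzyme forms, PETE and CFBP1 were described after their values were seen. No sequence was used.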

Additional observations from a re-analysis of the deposited data

How the results depend on the processing

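All 31 tested genes kept their direction under every alternative in which they were tested. None passed the adjusted p of 0.05 except the 17 by DESeq2. Over all genes, the number called was 0 by edgeR, 29 without a filter and 513 with DESeq2 (310 lower, 203 higher), and 0 under every other alternative and with any 1 library left out. The median log2 fold change of the 31 genes, -0.998, was -0.89 with total count scaling, -1.03 with limma-voom, -0.90 with limma on log2(TPM + 1) or log2(TPM + 0.1), and from -1.05 to -0.98 with 1 library left out. All genes moved too, by a median of 0.10 with total count scaling, 0.11 on log2(TPM + 1) and 0.12 on log2(TPM + 0.1). Under total count scaling 992 genes were lower and 1371 higher at an unadjusted p under 0.05, where TMM had 1410 lower and 876 higher. The number of the 31 genes lower at an unadjusted p under 0.05 was 27 with all libraries and from 15 to 28 with 1 library left out, and the number higher was 0, or 1 without a filter, with a crossed block or without CD replicate 1 or CK replicate 1 (from 0 to 1 with 1 library left out). Without the 20 genes with most counts, ALDP among them, 28 of the remaining 30 genes were below 0. The cause of these shifts was not tested. With 1 library left out, 8 genes moved by over 1.5 times, each named above.

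In the labels, same-numbered libraries share only a number. Their deviations from the group means correlated at -0.13. With 2 libraries a group the crossed value is fixed at 0.13, so this cannot show whether libraries were paired. With the replicate block 23 genes of the list were lower at an unadjusted p under 0.05, as were 3.72% of all genes tested. With this block edgeR called 0 of all genes. With a crossed block, added after seeing the data, 29 were lower and 1 higher. Of all 26271 genes tested, 7.01% were lower with the crossed block and 1080 were higher. With 2 libraries a group, standard errors of the 31 genes ran from 0.16 to 0.52.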

Other observations

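Genes that lie fully inside another gene were found outside the list too. In all, 41 genes have every exon base within genes on the opposite strand, and all 41 were listed at 0. The antenna gene LOC_Os01g52240 was at 0 with 100% of its exon bases shared, and PSBW (LOC_Os01g56680), a small photosystem II subunit, was at 0 with 99.5% shared. For OEE3 the gene on the other strand, LOC_Os07g36090, had 1686 and 946 counts in CD leaves and 1771 and 1273 counts in CK leaves. For LOC_Os09g30340 it was LOC_Os09g30350, with 1193 and 598 counts in CD leaves and 948 and 895 counts in CK leaves.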
